A study of Ictidomys tridecemlineatus with 15 samples.

Results

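Liver transcription in summer active (SA) 13-lined ground squirrels was compared with that in animals entering torpor (Ent), with 3 libraries in each state, 6 of the 14 libraries that hold counts in the series. Libraries were assigned to the groups by the hibernation state and animal number in their labels, and no measured value entered that assignment. The comparison itself was chosen with earlier results of these data known. Nascent RNA was measured by global run-on sequencing (GRO-seq), in which nuclei isolated from frozen liver extend the RNA of polymerases already engaged on DNA in the presence of a labelled nucleotide. The wider series also covers interbout arousal (IBA), early torpor (ET) and late torpor (LT).

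Both groups were females housed in a laboratory after purchase from a breeding colony, with no genetic or drug treatment, each library from a different animal, and animal age was not given in the sources used here. SA animals were homeothermic, fed and in a long light phase at a warm ambient temperature in the period before hibernation. Ent animals were taken in midwinter from a cold, dark hibernaculum without food, after an arousal and while body temperature was falling but still far above that of deep torpor. Feeding, light, ambient and body temperature, housing and time of year therefore changed together, and their parts in any difference cannot be told apart. Each group mixes animals of an earlier and a later collection season: SA replicate 1 and Ent replicates 1 and 2 came from the earlier, and SA replicates 2 and 3 and Ent replicate 3 from the later.

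Ground squirrels fatten in summer, when the liver turns dietary sugar into fatty acids, and live through winter on stored fat, with long bouts of torpor broken by brief arousals to a warm body temperature. Entrance is the cooling phase that closes an arousal. The liver of a fasting mammal lowers lipid and glycogen synthesis, oxidizes fatty acids and makes ketone bodies.

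Between 3713883 and 8884763 reads were counted per SA library and between 6345826 and 7697181 per Ent library. The table holds 6324 gene-body units, of which 4705 bear 1 gene name (single-gene units) and 1619 join several genes. Levels are CPM of the TMM-normalized libraries, listed in the order of replicates 1, 2 and 3. Log2 fold changes are Ent relative to SA, so that a positive value is higher in Ent. Because every library is scaled by its total and its TMM factor, a change in transcription shared by all genes would not be visible. In whole liver, fewer cells of a type and less nascent RNA per cell cannot be told apart. The authors report that polymerase ran further past gene ends as animals cooled in entrance and through torpor, at times into neighbouring genes. Whether the counts of a unit came from a gene upstream of it was not tested here.

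Units lower in Ent included 11 of 30 tested genes of amino acid catabolism, 4 of 10 of cholesterol synthesis and uptake and 5 of 17 of fatty acid synthesis, and units higher in Ent included 16 of 27 ribosomal protein genes, 15 of 37 splicing genes, Gpat3 and Atf5. No test of enrichment was run for these lists. At an adjusted p of 0.05 or less, 1162 single-gene units differed (24.7% of those tested), 567 of them higher in Ent (12.1%) and 595 lower (12.6%). At an adjusted p of 0.001 there were 17 higher and 25 lower units (0.893% together). The falls reached further than the rises: 47 of the lower and 16 of the higher units differed at least 4-fold, and 15 and 2 at least 8-fold. Without SA replicate 1 these counts were 53 and 29 at 4-fold and 15 and 5 at 8-fold. Without SA replicate 2, 16 lower and 5 higher units differed at least 8-fold. With scaling to uniquely mapped reads, 39 lower and 21 higher units differed at least 4-fold. Of the 1162 called units, 1099 had SA and Ent libraries that did not overlap, beside 39.1% of all single-gene units, the called ones included. The call itself favours groups that do not overlap, so this count is no separate support for the calls. Among 1619 merged units, 181 were higher and 142 lower (309 and 96 with scaling to uniquely mapped reads), a smaller share than among single-gene units. No test compared the shares. The merged counts were 119 and 102 without SA replicate 3, 115 and 89 without Ent replicate 2 and 118 and 86 without Ent replicate 3.

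The balance of the directions depended on the scaling. Of the called units, 48.8% were higher in Ent under TMM. The share was 70.1% (921 higher and 393 lower) with scaling to uniquely mapped reads, and 61.7% (750 and 466) under upper-quartile normalization. Scaling to uniquely mapped reads moved the median of all single-gene units by 0.15 on the log2 scale, from -0.01 to 0.14, and the fold changes below are relative to the TMM median. The counts also rested on single libraries, with 351 higher units without SA replicate 3, 362 higher and 337 lower without Ent replicate 2, and 307 higher and 353 lower without Ent replicate 3.

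**Figure D1:**
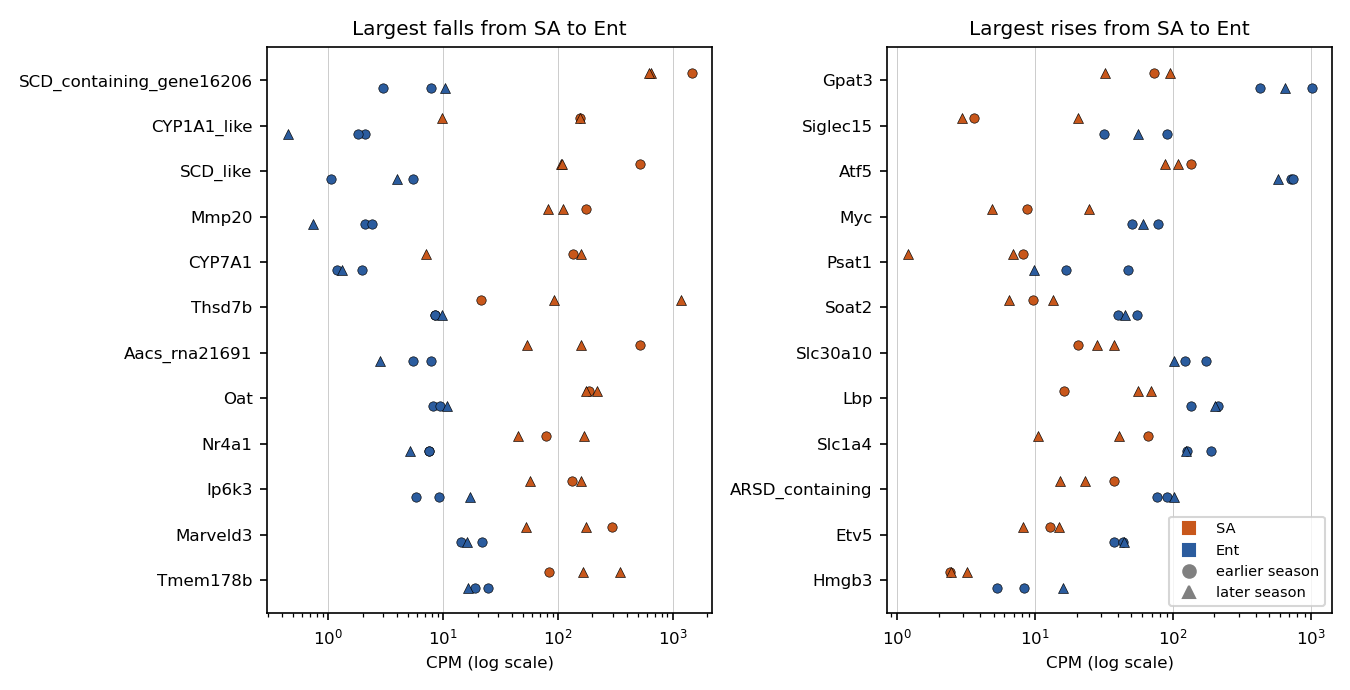
Level of the 12 single-gene units with the largest falls and the 12 with the largest rises in each library, in CPM on a log scale, for 3 SA and 3 Ent libraries, with the collection season as the marker. The units were chosen for groups that do not overlap, so the separation of the colours is set by that choice, and the distance between them is the measured quantity.

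Stearoyl-CoA desaturase, which makes monounsaturated from saturated fatty acids, showed the largest fall among the units named by the rule given with the methods. The unit SCD_containing_gene16206 (chromosome 1, 33657946 to 33672214, plus strand, build HiC_Itri_2) had 1465, 643 and 621 CPM in SA and 3.04, 7.86 and 10.4 CPM in Ent. Every SA library was far above every Ent library, and the log2 fold change was -7.01 (standard error 0.83), with adjusted p = 0.000498 in edgeR's quasi-likelihood test (Benjamini-Hochberg). A neighbouring unit, SCD_like (chromosome 1, 33733397 to 33745897, minus strand), had 515, 106 and 109 CPM in SA and 1.06, 5.44 and 4.00 CPM in Ent, a log2 fold change of -6.13 (standard error 0.92). A further unit of that name in the same stretch, SCD_containing_gene16210 (chromosome 1, 33793710 to 33806869, plus strand), ranged from 49.8 to 134 CPM in SA and 21.6 to 36.5 CPM in Ent, with a log2 fold change of -1.56. It was picked after its values were seen. Leaving out 1 library removed the call of SCD_containing_gene16210 (SA replicate 1, Ent replicate 1 or Ent replicate 2). The log2 fold change became -0.95 for SCD_containing_gene16210 without SA replicate 1 (in place of -1.56). Whether these units of the same name share reads was not tested.

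Aacs_rna21691, a unit for acetoacetyl-CoA synthetase, which feeds ketone body carbon into lipid synthesis, had 520.4, 160.1 and 54.4 CPM in SA and 7.92, 5.44 and 2.82 CPM in Ent. SA varied widely but every SA library was above every Ent library, and the log2 fold change was -5.49 (standard error 0.79). A merged unit on the same chromosome that includes an alternative copy of this gene also fell, by 4.55 on the log2 scale, and it was picked after its values were seen. The SCD units and Aacs_rna21691 were not among the tested members of the fatty acid synthesis list. Of that list, 5 of 17 tested members fell and 1 rose, a share above the 24.7% called among single-gene units. Its median log2 fold change was -0.60 beside -0.01 for all single-gene units. The count of falls was 3 without Ent replicate 3.

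Acly, which makes cytosolic acetyl-CoA from citrate, had 613, 234 and 169.7 CPM in SA and 92.7, 85.9 and 67.3 CPM in Ent, and Acss2, which makes it from acetate, had 776, 268 and 210.3 CPM in SA and 124, 83.4 and 130.2 CPM in Ent. SA replicate 1 was the highest library for both genes. The size of the difference moved to -1.30 for Acly without SA replicate 1 (in place of -2.05) and -1.09 for Acss2 without SA replicate 1 (in place of -1.89) on the log2 scale. Fatty acid synthase (Fasn) had 940.5, 665 and 506 CPM in SA and 400.4, 227 and 147 CPM in Ent. Its fall of 1.45 on the log2 scale had adjusted p = 0.0154 in edgeR's quasi-likelihood test (Benjamini-Hochberg), which became 0.0555 without Ent replicate 2 and 0.0551 without Ent replicate 3. The fatty acid desaturase Fads2 and Tkfc, which phosphorylates the glyceraldehyde made from fructose, also fell (log2 fold changes of -1.56 and -1.88), whereas the elongase Elovl5 rose (0.89). With 1 library left out, the call was lost for Fads2 (SA replicate 2 or Ent replicate 3) and Elovl5 (any but SA replicate 2). On the log2 scale the difference was 1.37 for Elovl5 without SA replicate 2 (in place of 0.89). Lpin1, a phosphatidate phosphatase and the list's member of highest CPM, had 2417, 4496 and 1359.6 CPM in SA and 4576, 1783 and 4405 CPM in Ent, with overlapping groups.

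Of 10 tested members of the cholesterol synthesis and uptake list, 4 fell and 0 rose, a share above the 24.7% called among single-gene units, with a median log2 fold change of -0.77. The median of the list was -0.40 without SA replicate 2. Scap, the escort that carries the sterol-sensing transcription factors out of the endoplasmic reticulum, had 96.2, 112 and 115 CPM in SA and 53.9, 43.5 and 36.9 CPM in Ent. The SA libraries were tightly grouped and all above the Ent libraries, and the log2 fold change was -1.27 (standard error 0.15), with adjusted p = 0.000494 in edgeR's quasi-likelihood test (Benjamini-Hochberg). Sc5d, a late enzyme of the pathway, had 213, 155 and 206 CPM in SA and 123, 99.0 and 96.4 CPM in Ent, without overlap of the groups. Insig1, which retains Scap when sterols are plentiful, had 116, 534 and 262 CPM in SA and 72.6, 120.3 and 94.4 CPM in Ent, and SA replicate 1 lay inside the Ent range. The call depended on single libraries for Insig1 (SA replicate 2, Ent replicate 1 or Ent replicate 3). Values moved by single libraries were -0.99 for Insig1 without SA replicate 2 (in place of -1.67). Insig2, of highest CPM, had 179, 328 and 192 CPM in SA and 446, 250.0 and 328 CPM in Ent, with overlapping groups. Without SA replicate 2 the list had 1 rise.

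In the bile acid pathway, 3 of 13 tested genes fell and 0 rose, a share below the 24.7% called among single-gene units under TMM, on a side that depended on the method or scaling and on single libraries, and the count of falls was 1 without SA replicate 1. CYP7A1, the rate-limiting enzyme of bile acid synthesis (chromosome 6, 70180323 to 70189278, plus strand), had 136, 7.15 and 158 CPM in SA and 1.98, 1.21 and 1.33 CPM in Ent. SA replicate 2 was far below the other SA libraries but above every Ent library, and the log2 fold change was -6.03 (standard error 0.97). CYP8B1, which directs synthesis toward cholic acid, had 209, 21.2 and 174 CPM in SA and 30.4, 35.2 and 20.6 CPM in Ent, with the same SA library low and here inside the Ent range. Its log2 fold change was -2.23 (adjusted p = 0.0166 in edgeR's quasi-likelihood test (Benjamini-Hochberg)). The sterol exporter Abcg5 fell from a mean of 59.8 ± 25.1 to 29.1 ± 3.17 CPM (SD, n = 3 each). Single libraries decided the call of CYP8B1 (SA replicate 1, SA replicate 3 or Ent replicate 3) and Abcg5 (SA replicate 1 or Ent replicate 2). The fitted difference was -0.68 for Abcg5 without SA replicate 1 (in place of -1.04) on the log2 scale. The list's median log2 fold change was -0.24. That median became -0.02 without SA replicate 1. Its member of highest CPM, the fatty acid transporter and activating enzyme Slc27a2, had 1229, 649 and 1094 CPM in SA and 1524, 1372 and 1271 CPM in Ent and passed the threshold only with scaling to uniquely mapped reads.

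CYP1A1_like, named for the cytochrome P450 that oxidizes aromatic compounds, had 155, 9.90 and 155 CPM in SA and 2.11, 1.81 and 0.445 CPM in Ent. SA replicate 2 was again the lowest SA library, and the log2 fold change was -6.17 (standard error 1.08). Ahr, the receptor for aromatic ligands that switches on CYP1 genes, had 182, 216 and 140.1 CPM in SA and 39.7, 58.4 and 83.2 CPM in Ent, a log2 fold change of -1.57 (standard error 0.24) with no overlap. The adjacent CYP1A2, picked after its values were seen, had 1191, 219.8 and 587 CPM in SA and 146, 193 and 103 CPM in Ent and was not called (adjusted p = 0.0616 in edgeR's quasi-likelihood test (Benjamini-Hochberg)). Of 11 tested members of the drug metabolism list, 3 fell and 0 rose, a share of 27.3%, close to the 24.7% called among single-gene units. The falls were of CYP1A1_like, Ahr and SULT2A1_containing, named for a sulfotransferase (-1.08 on the log2 scale). CYP2E1_like, the member of highest CPM, had 1367, 594 and 1364 CPM in SA and 2152, 1912 and 2213 CPM in Ent and was not called (adjusted p = 0.0616 in edgeR's quasi-likelihood test (Benjamini-Hochberg)), but passed the threshold with DESeq2 and under upper-quartile and uniquely mapped scaling. Without SA replicate 2, CYP1A2 passed the threshold. With scaling to uniquely mapped reads the drug metabolism list had 2 rises and 3 falls.

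Of 30 tested members of the urea cycle and amino acid catabolism list, 11 fell and 1 rose, a share above the 24.7% called among single-gene units, with a median log2 fold change of -0.64. Of the 12 calls, 5 were kept whichever library was left out. There were 7 falls without Ent replicate 2 and 2 rises without Ent replicate 3, and the rise, of the branched-chain ketoacid dehydrogenase subunit Bckdhb, had a log2 fold change of 0.74. A call was lost on leaving out 1 library for Bckdhb (SA replicate 1, SA replicate 2, Ent replicate 1 or Ent replicate 2). Oat, the mitochondrial ornithine aminotransferase, which links ornithine to glutamate and proline and was not on that list (chromosome 1, 12818430 to 12840875, plus strand), had 188, 175 and 219 CPM in SA and 8.18, 9.37 and 10.8 CPM in Ent. The libraries of each group lay close together, and the log2 fold change was -4.36 (standard error 0.46), with adjusted p = 0.000299 in edgeR's quasi-likelihood test (Benjamini-Hochberg).

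Several enzymes of aromatic amino acid breakdown fell, with Hgd, which opens the ring of homogentisate, at 1055, 742 and 895 CPM in SA and 258, 458 and 249 CPM in Ent and Kynu, the kynureninase of tryptophan breakdown, at 698, 1179.7 and 1038 CPM in SA and 268, 376 and 388 CPM in Ent. Neither gene's groups overlapped. Tat, Kmo and HPD_like_gene12596 had log2 fold changes of -1.55, -0.88 and -0.87. Around the urea cycle, Cps1, its entry enzyme, had 6054, 13658 and 2643 CPM in SA and 2080.4, 1122 and 2377 CPM in Ent. SA replicate 2 was far above the other SA libraries, and the log2 fold change was -2.002 (adjusted p = 0.0314 in edgeR's quasi-likelihood test (Benjamini-Hochberg)). Ass1, Asl and Nags fell by 2.33, 1.35 and 0.86 on the log2 scale, and Glud1, which releases ammonia from glutamate, by 0.81. The call of Nags was lost with scaling to uniquely mapped reads. Without single libraries the call was not kept for Tat (Ent replicate 2 or Ent replicate 3), Kmo (SA replicate 1, Ent replicate 1 or Ent replicate 2), Cps1 (SA replicate 2, Ent replicate 1, Ent replicate 2 or Ent replicate 3), Ass1 (any but Ent replicate 2) and Nags (SA replicate 1, SA replicate 3, Ent replicate 2 or Ent replicate 3). The log2 fold change became -1.23 for Cps1 without SA replicate 2 (in place of -2.002).

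In carbohydrate metabolism, Gys2, the liver glycogen synthase, had 577, 269.8 and 569.9 CPM in SA and 129, 126 and 146 CPM in Ent, a log2 fold change of -1.82 (standard error 0.29). Ppp1r3b, which brings a phosphatase to glycogen and activates its synthesis, had 886, 1004 and 1035 CPM in SA and 559, 396 and 347 CPM in Ent. All 3 SA libraries of both genes were above the Ent libraries. Khk, which starts fructose breakdown, and Gpi, the glucose phosphate isomerase, fell by 0.98 and 0.93 on the log2 scale, and the branching enzyme Gbe1, of highest CPM, had 3540.3, 3566 and 1830.2 CPM in SA and 2238, 1339.5 and 1585 CPM in Ent and was not called. These were the 4 falls among 18 tested members of the list, with 0 rises, a share below the 24.7% called among single-gene units under TMM, on a side that depended on single libraries, and a median of -0.43. Single libraries moved the median to -0.17 without SA replicate 1 and -0.27 without Ent replicate 2. Without SA replicate 2 there were 7 falls and 1 rise.

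The insulin receptor (Insr) had 864, 578 and 609 CPM in SA and 423, 422 and 255 CPM in Ent, and Foxo3, a transcription factor that insulin signalling keeps out of the nucleus, had 1838, 1660.2 and 1539.9 CPM in SA and 1037, 652 and 754 CPM in Ent. The groups did not overlap for either gene, with log2 fold changes of -0.90 (standard error 0.22) and -1.04 (standard error 0.22). They were the 2 called among 13 tested members of the insulin and IGF axis list, a share below the 24.7% called among single-gene units under TMM, on a side that depended on single libraries, and 0 rose. Without SA replicate 2 there were 2 rises.

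Among the rises, Gpat3, which starts triglyceride synthesis by acylating glycerol phosphate, was the largest in a symbol-named unit among called units whose groups do not overlap (chromosome 14, 4926254 to 5004367, minus strand). It had 72.5, 95.7 and 31.96 CPM in SA and 1016, 429.9 and 653 CPM in Ent. Every Ent library was well above the highest SA library, and the log2 fold change was 3.40 (standard error 0.45), with adjusted p = 0.000739 in edgeR's quasi-likelihood test (Benjamini-Hochberg). Soat2, which esterifies cholesterol for storage or export, had 9.64, 13.5 and 6.42 CPM in SA and 39.7, 55.2 and 44.6 CPM in Ent, a log2 fold change of 2.27 (standard error 0.30).

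Atf5, a transcription factor of the stress response to amino acid shortage and to unfolded protein, had 136, 109 and 88.2 CPM in SA and 713, 738 and 582 CPM in Ent (chromosome 16, 22095897 to 22114027, plus strand). Both groups were tight, and the log2 fold change of 2.61 (standard error 0.24) had adjusted p = 0.000261 in edgeR's quasi-likelihood test (Benjamini-Hochberg). Psat1, an enzyme of serine synthesis, had 8.19, 6.88 and 1.19 CPM in SA and 47.0, 16.6 and 9.78 CPM in Ent, and Slc1a4, a transporter of neutral amino acids, had 65.6, 40.7 and 10.5 CPM in SA and 188, 126 and 125 CPM in Ent. The Ent values of Psat1 spread widely, and its call (adjusted p = 0.0387 in edgeR's quasi-likelihood test (Benjamini-Hochberg)) was not kept without each library. Leaving out 1 library removed the call of Psat1 (SA replicate 2, SA replicate 3, Ent replicate 1 or Ent replicate 2). The size of the difference moved to 1.39 for Psat1 without Ent replicate 1 (in place of 2.28) on the log2 scale. Ddit3, which encodes the stress factor CHOP, had 165, 172 and 192 CPM in SA and 365, 339.7 and 307 CPM in Ent, a log2 fold change of 0.94 (standard error 0.18). Herpud1, which serves the degradation of misfolded proteins of the endoplasmic reticulum, rose from 452 ± 134 to 804 ± 97.5 CPM (SD, n = 3 each).

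Not all genes of that response were higher. Of 21 tested members of the unfolded protein and integrated stress response list, 3 rose (Ddit3, Herpud1 and Psat1) and 4 fell, a share above the 24.7% called among single-gene units under TMM, on a side that depended on single libraries, with a median log2 fold change of -0.25. The median of the list was 0.04 without SA replicate 2 and -0.43 without SA replicate 3. The falls were of the kinases Eif2ak1 and Eif2ak3 (log2 fold changes -0.56 and -1.25), Edem1 (-0.79) and the disulfide isomerase Pdia4 (-1.17). With 1 library left out, the call was lost for Psat1 (SA replicate 2, SA replicate 3, Ent replicate 1 or Ent replicate 2), Eif2ak3 (SA replicate 2, Ent replicate 2 or Ent replicate 3), Edem1 (SA replicate 2 or Ent replicate 3) and Pdia4 (Ent replicate 3). On the log2 scale the difference was 1.39 for Psat1 without Ent replicate 1 (in place of 2.28), -0.64 for Eif2ak3 without SA replicate 2 (in place of -1.25) and -0.68 for Pdia4 without SA replicate 2 (in place of -1.17). The falls numbered 2 without SA replicate 2 and 1 without Ent replicate 3, and Herpud1 was the member of highest CPM.

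Myc, a transcription factor of growth, had 8.68, 24.5 and 4.87 CPM in SA and 78.3, 50.8 and 60.3 CPM in Ent. The Ent libraries were all above the highest SA library, and the log2 fold change was 2.38 (standard error 0.46). Etv5, an ETS family transcription factor, had 12.8, 14.9 and 8.20 CPM in SA and 37.5, 43.7 and 44.5 CPM in Ent, and Hmgb3, a chromatin protein, had 2.41, 2.48 and 3.21 CPM in SA and 5.28, 8.31 and 15.9 CPM in Ent. The groups did not overlap in either. The call depended on single libraries for Hmgb3 (Ent replicate 3). Slc30a10, which exports manganese, had 20.5, 37.4 and 27.9 CPM in SA and 123, 172 and 103 CPM in Ent, and Lbp, a plasma protein that binds bacterial lipopolysaccharide, had 16.1, 55.8 and 69.6 CPM in SA and 136, 212 and 201 CPM in Ent. Neither pair of groups overlapped, with log2 fold changes of 2.21 (standard error 0.24) and 1.94 (standard error 0.48). Siglec15, a sialic acid receptor, and ARSD_containing, named for an arylsulfatase, rose by 2.80 and 1.84 on the log2 scale.

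Of 17 tested members of the ketogenesis and fatty acid oxidation list, 3 rose and 1 fell, a share below the 24.7% called among single-gene units under TMM, on a side that depended on the method or scaling and on single libraries, with a median log2 fold change of 0.25. That median became 0.06 without Ent replicate 1. Hadh, which carries out the dehydrogenase step of mitochondrial beta-oxidation, had 237, 288 and 282 CPM in SA and 473, 364 and 531 CPM in Ent, and Acadl, an acyl-CoA dehydrogenase for long chains, had 125, 121 and 126 CPM in SA and 193, 194 and 183 CPM in Ent. Acat1, which acts on acetoacetyl-CoA in ketone body metabolism, had 50.9, 58.9 and 71.5 CPM in SA and 138, 158 and 111 CPM in Ent. In each case the Ent libraries were above the SA libraries, and the 3 differences had adjusted p between 0.00378 and 0.0141 in edgeR's quasi-likelihood test (Benjamini-Hochberg). Vnn1, a pantetheinase, fell by 1.43 on the log2 scale, and without SA replicate 2 there were 2 falls. The coactivator Ppargc1a, of highest CPM, had 662, 760.3 and 451 CPM in SA and 733, 693 and 833 CPM in Ent, with overlapping groups. The ketogenesis list had 6 rises and 1 fall when scaled to uniquely mapped reads.

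Nr4a1, an orphan nuclear receptor induced early by hormones and stress, had 79.5, 44.8 and 171 CPM in SA and 7.52, 7.56 and 5.19 CPM in Ent. Every Ent library was below every SA library, with a log2 fold change of -3.87 (standard error 0.48). Arrdc3, an arrestin-domain protein that moves receptors off the cell surface, had 687, 149 and 1043 CPM in SA and 129, 86.9 and 127 CPM in Ent. SA replicate 2 was only slightly above the Ent libraries, and the log2 fold change was -2.46 (adjusted p = 0.0143 in edgeR's quasi-likelihood test (Benjamini-Hochberg)). Fosl2, Txnip and Atf3 were the other falls of the immediate early and stress response list (log2 fold changes -0.92, -1.24 and -1.52). In all, 5 of 22 tested members fell and 2 rose, Myc and Ddit3, a share above the 24.7% called among single-gene units. Klf9, of highest CPM, had 493, 381 and 611 CPM in SA and 551, 538 and 789 CPM in Ent with overlapping groups. Single libraries decided the call of Arrdc3 (SA replicate 3 or Ent replicate 2), Txnip (SA replicate 1, SA replicate 3, Ent replicate 1 or Ent replicate 2) and Atf3 (any but SA replicate 1). The falls numbered 2 without SA replicate 3 or Ent replicate 2 and 3 without Ent replicate 1, and the rises 4 without SA replicate 3. The list's median was -0.08 under TMM and turned to 0.08 with scaling to uniquely mapped reads, so that its direction depends on the scaling. Single libraries moved the median to -0.35 without SA replicate 1, -0.12 without SA replicate 2, -0.19 without SA replicate 3, -0.02 without Ent replicate 2 and -0.39 without Ent replicate 3.

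Among chaperones, Dnaja1, a co-chaperone of Hsp70, had 76.4, 75.9 and 42.7 CPM in SA and 23.2, 19.2 and 15.1 CPM in Ent, a log2 fold change of -1.75 (standard error 0.28) without overlap. Dnajb1, another Hsp70 co-chaperone, had 37.6, 40.2 and 34.7 CPM in SA and 21.1, 30.1 and 17.9 CPM in Ent, also without overlap, and its call was lost with scaling to uniquely mapped reads. A call was lost on leaving out 1 library for Dnajb1 (SA replicate 1, SA replicate 2, Ent replicate 1 or Ent replicate 3). These were the 2 called of 25 tested members of the heat shock list, with 0 rises, a share below the 24.7% called among single-gene units, and the falls numbered 1 without SA replicate 1, SA replicate 2, Ent replicate 1 or Ent replicate 3 and 4 without SA replicate 3. The list's median, -0.11, turned to 0.04 with scaling to uniquely mapped reads. The median of the list was 0.02 without SA replicate 2, -0.23 without SA replicate 3 and -0.06 without Ent replicate 1. Hsp90aa1 had 57.1, 55.8 and 29.8 CPM in SA and 40.7, 45.4 and 45.4 CPM in Ent, and Dnajc3, of highest CPM, had 334, 524 and 279.8 CPM in SA and 308, 266 and 254 CPM in Ent. The groups overlapped in both. With scaling to uniquely mapped reads the heat shock list had 2 rises and 1 fall.

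Of 27 tested cytosolic ribosomal protein genes, 16 rose and 0 fell, a share above the 24.7% called among single-gene units, at a median of 0.65 on the log2 scale, and the rises numbered 9 without SA replicate 3. Of the 16 calls, 9 were kept whichever library was left out. Rps29 had 23.1, 21.7 and 17.8 CPM in SA and 51.6, 55.9 and 52.2 CPM in Ent, and Rpl9, the member of highest CPM, had 61.0, 59.7 and 46.3 CPM in SA and 94.6, 104 and 125 CPM in Ent. Rpl15 had 21.2, 17.1 and 16.99 CPM in SA and 31.5, 50.9 and 50.7 CPM in Ent. In all of them the lowest Ent library was above the highest SA library, and the log2 fold changes were 1.36, 0.96 and 1.27 (adjusted p between 0.00214 and 0.00259 in edgeR's quasi-likelihood test (Benjamini-Hochberg)). Under every scaling tried the list's median was positive, from 0.65 to 0.81. Another 40 genes of this list lie in merged units and were not tested for it. The ribosomal protein list had 20 rises and 0 falls when scaled to uniquely mapped reads.

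Of 37 tested splicing factors and kinases, 15 rose and 0 fell, a share above the 24.7% called among single-gene units, at a median of 0.30 on the log2 scale, and the rises numbered 8 without SA replicate 3 and 9 without Ent replicate 3. Of the 15 calls, 7 were kept whichever library was left out. Hnrnpa1, which represses exon use, had 107, 108 and 79.8 CPM in SA and 168, 214 and 193 CPM in Ent, and Prpf38b, a spliceosome protein, had 83.9, 77.6 and 71.9 CPM in SA and 128, 142 and 149 CPM in Ent. Son, a speckle protein that supports splicing, had 262, 281 and 234 CPM in SA and 398, 410.0 and 399 CPM in Ent. No groups overlapped in these genes. The SR protein gene Srsf6 had 105, 92.4 and 72.2 CPM in SA and 141, 163 and 142 CPM in Ent, a log2 fold change of 0.72 (standard error 0.15). Tra2b and Srsf5 rose by 0.55 and 0.37 on the log2 scale. Without single libraries the call was not kept for Tra2b (SA replicate 3 or Ent replicate 3) and Srsf5 (any but Ent replicate 1). Hnrnpc, of highest CPM, had 625, 623 and 649 CPM in SA and 679, 722 and 800.2 CPM in Ent and was not called. With scaling to uniquely mapped reads the splicing list had 19 rises and 0 falls.

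Among 24 tested genes of RNA polymerase II, elongation and termination, 6 rose and 1 fell. This share of 29.2% was above the 24.7% called among single-gene units under TMM, on a side that depended on single libraries. The rises included Fip1l1 (128 to 141 CPM in SA and 182 to 218 CPM in Ent), Cpsf7, Cpsf3, Cpsf6 and Pcf11 of the machinery that cuts and ends transcripts, by 0.54, 0.38, 0.52, 0.41 and 0.40 on the log2 scale, and the polymerase subunit Polr2b (0.40). The fall was of Polr2a, the largest polymerase subunit, with 106, 105 and 97.3 CPM in SA and 79.9, 71.5 and 61.1 CPM in Ent. Its call was lost with scaling to uniquely mapped reads. Leaving out 1 library removed the call of Cpsf7 (SA replicate 3), Cpsf3 (SA replicate 2, Ent replicate 2 or Ent replicate 3), Cpsf6 (SA replicate 1, SA replicate 3, Ent replicate 2 or Ent replicate 3), Pcf11 (any of the 6 libraries), Polr2b (SA replicate 2, SA replicate 3, Ent replicate 2 or Ent replicate 3) and Polr2a (Ent replicate 2 or Ent replicate 3). The rises of the list numbered 2 without SA replicate 3, Ent replicate 2 or Ent replicate 3, and the falls 2 without Ent replicate 1 and 0 without Ent replicate 2 or Ent replicate 3. Ell2, an elongation factor and the member of highest CPM, had 637, 594 and 406 CPM in SA and 352, 249 and 444 CPM in Ent, with overlapping groups. The RNA polymerase II list had 8 rises and 0 falls when scaled to uniquely mapped reads.

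Of 21 tested subunits of oxidative phosphorylation, 6 rose and 0 fell, with a median of 0.41. This share of 28.6% was above the 24.7% called among single-gene units under TMM, on a side that depended on single libraries. UQCRFS1_like_gene13576, named for the Rieske protein of complex III, had 67.2, 43.7 and 57.3 CPM in SA and 88.0, 94.3 and 115 CPM in Ent. Ndufa9, Ndufb4, Ndufa4, Ndufv3 and Ndufb2, named for complex I subunits, rose by 0.57, 0.69, 0.81, 0.52 and 0.57 on the log2 scale. With 1 library left out, the call was lost for Ndufa9 (SA replicate 3 or Ent replicate 3), Ndufb4 (any but SA replicate 1), Ndufa4 (any but SA replicate 1), Ndufv3 (any but Ent replicate 3) and Ndufb2 (any but Ent replicate 1). The rises numbered 2 without SA replicate 2, SA replicate 3, Ent replicate 2 or Ent replicate 3 and 3 without Ent replicate 1. Ndufs4, of highest CPM, had 211, 191 and 194 CPM in SA and 208, 196 and 247 CPM in Ent, with overlapping groups. Of 17 tested proteasome subunits, 4 rose and 0 fell, a share below the 24.7% called among single-gene units under TMM, on a side that depended on the method or scaling and on single libraries, led by Psmb2 with 99.5, 101 and 85.9 CPM in SA and 119, 149 and 176 CPM in Ent and Psmb3 with 33.0, 44.6 and 26.9 CPM in SA and 59.0, 76.5 and 59.7 CPM in Ent. The others were Psma6 and Psmc1 (0.40 and 0.45 on the log2 scale), and the call of Psmc1 was lost with DESeq2 size factors. The call depended on single libraries for Psma6 (any of the 6 libraries) and Psmc1 (any but Ent replicate 1). There were 2 without SA replicate 1, SA replicate 3, Ent replicate 2 or Ent replicate 3. Psmd11, of highest CPM, had 193, 198 and 194 CPM in SA and 166, 176 and 167 CPM in Ent and was not called. With scaling to uniquely mapped reads the oxidative phosphorylation list had 10 rises and 0 falls. The proteasome list had 8 rises and 0 falls when scaled to uniquely mapped reads.

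**Figure D2:**
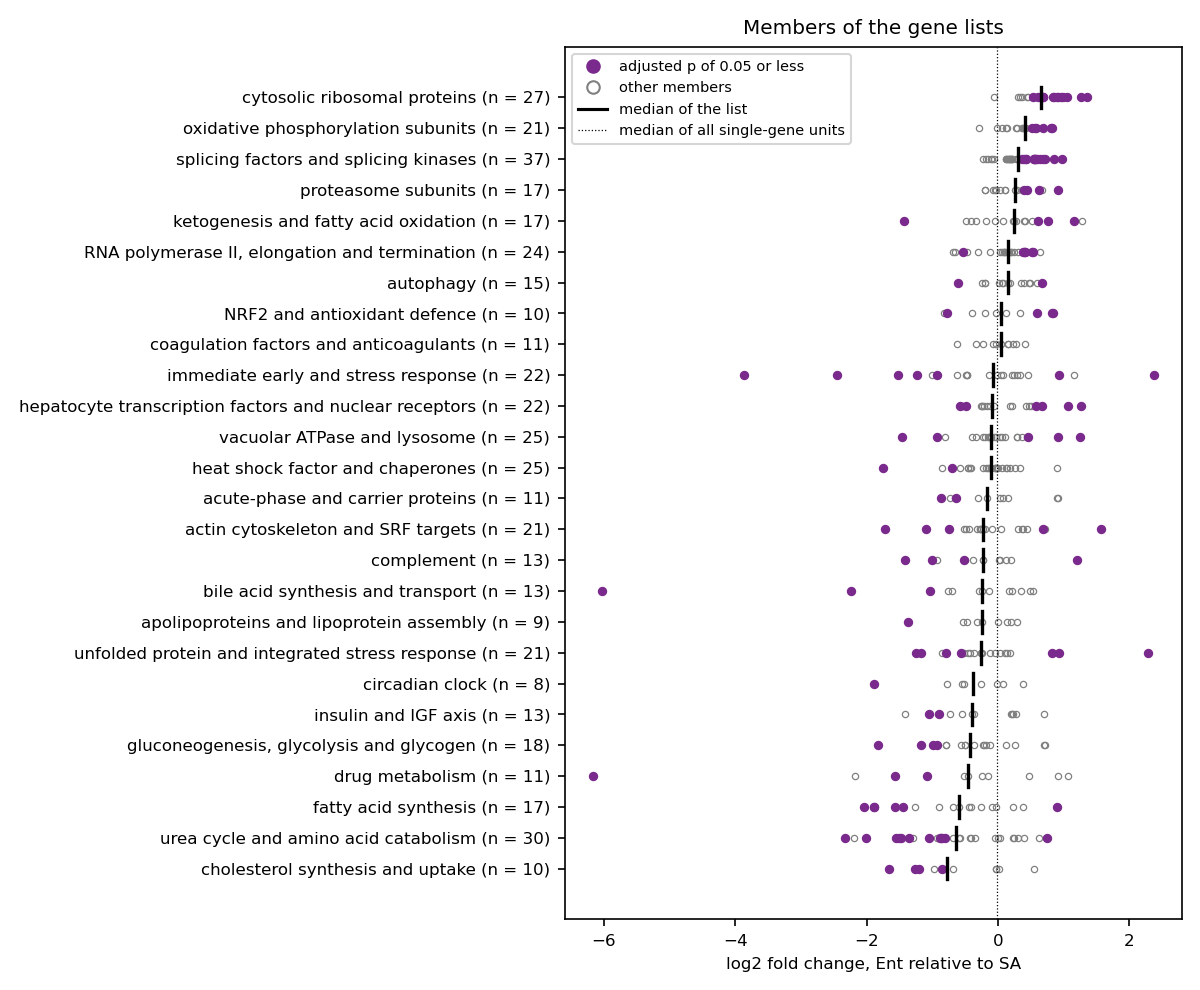
Log2 fold change of each tested member of the 26 gene lists, Ent relative to SA, with filled points for members at an adjusted p of 0.05 or less, open points for the rest, a bar at the median of each list and a dotted line at the median of all single-gene units. Ribosomal protein members sit almost wholly to the right of that line, and members of the cholesterol, amino acid and fatty acid lists mostly to its left.

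Genes of secreted plasma proteins were examined in 4 lists. Of 11 tested coagulation genes, 0 passed in edgeR's fit (0 at an unadjusted p of 0.05, and 0 with DESeq2), a share below the 24.7% called among single-gene units, and Fgb, a fibrinogen chain, had 888, 1758 and 586 CPM in SA and 459.8, 463 and 1173 CPM in Ent, with overlapping groups. Without SA replicate 2 there was 1 fall. Of 13 tested complement genes, 3 fell and 1 rose, a share above the 24.7% called among single-gene units under TMM, on a side that depended on the method or scaling and on single libraries. The rises numbered 0 without SA replicate 1, SA replicate 2, Ent replicate 2 or Ent replicate 3. Clu, which restrains the terminal complex, had 375, 322 and 338 CPM in SA and 224, 162 and 128 CPM in Ent, and Cfd, a protease that activates the alternative pathway, had 82.2, 52.5 and 59.1 CPM in SA and 30.1, 25.4 and 17.05 CPM in Ent. The groups did not overlap for either. The rise was of C8b (log2 fold change 1.21), and Cfi was the remaining fall (-0.52), lost under upper-quartile and uniquely mapped scaling. Single libraries decided the call of Cfd (Ent replicate 3), C8b (SA replicate 1, SA replicate 2, Ent replicate 2 or Ent replicate 3) and Cfi (SA replicate 1, SA replicate 3, Ent replicate 1 or Ent replicate 2). C8a, of highest CPM, had 296, 460.2 and 501 CPM in SA and 284, 417 and 576 CPM in Ent, with overlapping groups.

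Of 11 tested acute-phase and carrier genes, 2 fell and 0 rose, a share below the 24.7% called among single-gene units under TMM, on a side that depended on single libraries. The retinol carrier Rbp4 had 1371, 688 and 1611 CPM in SA and 844, 715 and 465 CPM in Ent and the receptor Il6r had 281, 293 and 327 CPM in SA and 194, 209 and 175 CPM in Ent, and both calls were lost under upper-quartile and uniquely mapped scaling. SA replicate 2 of Rbp4 lay inside the Ent range. A call was lost on leaving out 1 library for Rbp4 (SA replicate 1, SA replicate 3, Ent replicate 2 or Ent replicate 3) and Il6r (any of the 6 libraries). The falls of the list numbered 0 without SA replicate 1, SA replicate 3, Ent replicate 2 or Ent replicate 3, and the rises 1 without SA replicate 1 or SA replicate 2. The thyroxine carrier Serpina7 had 100.02, 26.1 and 19.7 CPM in SA and 51.2, 23.7 and 17.05 CPM in Ent, and the protease inhibitor A2m had 590.0, 1498 and 416 CPM in SA and 526, 668 and 1030.0 CPM in Ent. The groups overlapped for both. In the apolipoprotein list, 1 of 9 tested members fell and 0 rose, a share below the 24.7% called among single-gene units, the fall being of Apoh, a phospholipid-binding plasma protein, with 687, 386 and 461 CPM in SA and 206, 258 and 132 CPM in Ent. With scaling to uniquely mapped reads the acute-phase list had 1 rise and 0 falls.

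Bhlhe40, a repressor in the circadian clock, had 209, 142 and 331 CPM in SA and 83.0, 52.2 and 49.96 CPM in Ent, a log2 fold change of -1.88 (standard error 0.34), and was the 1 call among 8 tested clock genes, a share below the 24.7% called among single-gene units under TMM, on a side that depended on single libraries. There were 2 falls and 1 rise without SA replicate 2. Clock itself had 148, 202 and 162 CPM in SA and 238, 205 and 221 CPM in Ent and was not called, but passed the threshold with DESeq2 and under upper-quartile and uniquely mapped scaling. Without SA replicate 2, Clock passed the threshold. Among 22 tested hepatocyte transcription factors and nuclear receptors, 4 rose and 2 fell. This share of 27.3% was above the 24.7% called among single-gene units under TMM, on a side that depended on single libraries. Of the 6 calls, 1 was kept whichever library was left out. Hnf4g had 60.7, 45.9 and 69.2 CPM in SA and 128, 101 and 141 CPM in Ent, whereas Hnf4a, a main regulator of hepatocyte identity and the member of highest CPM, had 983, 889.5 and 895 CPM in SA and 958, 732 and 703 CPM in Ent and was not called. Foxa1 fell and Foxa2 rose (-0.49 and 0.68 on the log2 scale), Onecut2 fell (-0.58), and Cebpd rose (1.27). Without single libraries the call was not kept for Foxa1 (Ent replicate 1), Foxa2 (any but Ent replicate 2), Onecut2 (SA replicate 2, SA replicate 3, Ent replicate 1 or Ent replicate 2) and Cebpd (SA replicate 2, SA replicate 3 or Ent replicate 3). Values moved by single libraries were 0.43 for Foxa2 without Ent replicate 3 (in place of 0.68) and 1.98 for Cebpd without SA replicate 1 (in place of 1.27). The calls of Foxa1 and Onecut2 were also lost with scaling to uniquely mapped reads, and that of Onecut2 under upper-quartile normalization. The rises numbered 1 without SA replicate 3 or Ent replicate 3, and the falls 1 without SA replicate 3 or Ent replicate 2 and 0 without Ent replicate 1. The list's median of -0.09 turned to 0.06 with scaling to uniquely mapped reads. That median became 0.09 without SA replicate 2, -0.20 without Ent replicate 1, 0.00 without Ent replicate 2 and 0.05 without Ent replicate 3. The hepatocyte transcription factor list had 7 rises and 0 falls when scaled to uniquely mapped reads.

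In the lysosome list, 3 of 25 tested members rose and 2 fell, a share below the 24.7% called among single-gene units, and the median of -0.11 turned to 0.05 with scaling to uniquely mapped reads. Single libraries moved the median to 0.13 without SA replicate 2, -0.06 without SA replicate 3 and -0.02 without Ent replicate 3. Npc1, which moves cholesterol out of lysosomes, had 217, 177 and 317 CPM in SA and 87.8, 84.4 and 86.4 CPM in Ent, whereas the protease Ctsh had 81.0, 125 and 81.2 CPM in SA and 216, 206 and 259 CPM in Ent and the sialidase Neu1 had 30.1, 21.7 and 23.2 CPM in SA and 49.4, 49.0 and 43.1 CPM in Ent. The groups did not overlap in any of these genes. Tfeb, a regulator of lysosome genes, fell by 0.93 on the log2 scale and the proton pump subunit Atp6v1g1 rose by 0.45. The call of Tfeb was lost under upper-quartile and uniquely mapped scaling. Leaving out 1 library removed the call of Tfeb (SA replicate 3, Ent replicate 1, Ent replicate 2 or Ent replicate 3) and Atp6v1g1 (any but Ent replicate 1). The fitted difference was -0.43 for Tfeb without SA replicate 3 (in place of -0.93) on the log2 scale. The falls numbered 1 without SA replicate 3, Ent replicate 1, Ent replicate 2 or Ent replicate 3. Psap, of highest CPM, had 168, 259 and 127 CPM in SA and 164, 186 and 133 CPM in Ent, with overlapping groups. The pump subunit Atp6v1b2 had 137, 128 and 108 CPM in SA and 118, 124 and 96.4 CPM in Ent and was not called. Autophagy had 1 rise and 1 fall among 15 tested members, a share below the 24.7% called among single-gene units. Atg4d, a protease that processes autophagosome proteins, had 57.1, 49.8 and 55.8 CPM in SA and 86.6, 90.7 and 81.1 CPM in Ent. Ulk2, a kinase that starts autophagy, had 204, 158 and 250.1 CPM in SA and 143, 117 and 143 CPM in Ent, and its call was lost under upper-quartile and uniquely mapped scaling. With 1 library left out, the call was lost for Ulk2 (any but SA replicate 2). The rises numbered 2 without SA replicate 1, and the falls 0 without SA replicate 1, SA replicate 3, Ent replicate 1, Ent replicate 2 or Ent replicate 3. Atg5, of highest CPM, had 241, 264 and 239 CPM in SA and 283, 259 and 406 CPM in Ent, with overlapping groups. With scaling to uniquely mapped reads the lysosome list had 5 rises and 1 fall. The autophagy list had 4 rises and 0 falls when scaled to uniquely mapped reads.

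Nfe2l2, which encodes the antioxidant regulator NRF2, had 574, 433 and 673 CPM in SA and 347, 329.6 and 305 CPM in Ent, and Keap1, which targets NRF2 for degradation, had 102, 89.4 and 98.4 CPM in SA and 145, 159.6 and 131 CPM in Ent. The first was lower and the second higher in every Ent library. Prdx3 and Sod1, which remove peroxide and superoxide, rose by 0.83 and 0.84 on the log2 scale. In all, 3 of 10 tested members rose and 1 fell, a share above the 24.7% called among single-gene units, and the falls numbered 2 without SA replicate 1. The call depended on single libraries for Keap1 (Ent replicate 2) and Sod1 (Ent replicate 3). The log2 fold change became 0.54 for Sod1 without Ent replicate 3 (in place of 0.84). In the actin list 2 of 21 tested members rose, the cytoplasmic actin Actg1 (10.1, 27.0 and 36.4 CPM in SA and 74.3, 92.1 and 55.3 CPM in Ent) and Actr2 (0.69 on the log2 scale), and 3 fell, Krt18, Flna and Actn4 (-1.10, -1.72 and -0.75), a share below the 24.7% called among single-gene units under TMM, on a side that depended on single libraries. The call of Actn4 was lost with scaling to uniquely mapped reads. Single libraries decided the call of Actg1 (SA replicate 1, SA replicate 2, Ent replicate 1 or Ent replicate 2) and Actn4 (any of the 6 libraries). The size of the difference moved to -1.07 for Flna without SA replicate 2 (in place of -1.72) on the log2 scale. The rises of cytoskeletal genes numbered 1 without SA replicate 1, Ent replicate 1 or Ent replicate 2. Myh9, a myosin and the member of highest CPM, had 296, 451 and 264 CPM in SA and 303, 328 and 215 CPM in Ent, with overlapping groups.

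Other large falls were in genes of varied roles. Mmp20, a protease known from tooth enamel, had 177, 82.8 and 111 CPM in SA and 2.11, 2.42 and 0.741 CPM in Ent, a log2 fold change of -6.12 (standard error 0.77). Thsd7b had 21.5, 93.5 and 1184 CPM in SA and 8.58, 8.47 and 9.78 CPM in Ent, with SA replicate 3 far above the others, and without that library its log2 fold change was -2.68 in place of -5.60. Ip6k3, an inositol phosphate kinase, had 133, 56.9 and 159 CPM in SA and 5.81, 9.22 and 17.3 CPM in Ent. In these genes every Ent library was below the SA libraries. Marveld3, a tight junction protein, and Tmem178b each fell by 3.33 on the log2 scale.

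Units known only by an identifier included 1 rise larger than that of Gpat3. G15365 (chromosome 19, 16068115 to 16072744, plus strand) had 0.482, 1.65 and 0.832 CPM in SA and 41.7, 52.3 and 80.2 CPM in Ent, with every SA library far below every Ent library, and the log2 fold change was 5.92 (standard error 0.83), with adjusted p = 0.00111 in edgeR's quasi-likelihood test (Benjamini-Hochberg). G33252 had 9.16, 6.601 and 2.26 CPM in SA and 9.64, 69.4 and 40.5 CPM in Ent, without overlap. A call was lost on leaving out 1 library for G33252 (SA replicate 2, SA replicate 3, Ent replicate 2 or Ent replicate 3). G36643 and LOC110599192 fell by 2.95 and 2.47 on the log2 scale. Among 313 such units, 55 were higher and 47 lower (32.6%, beside 24.7% of all single-gene units). Without SA replicate 3 they were 30 and 31, and with scaling to uniquely mapped reads 73 and 37. Reads running on from an upstream gene were not told apart from a unit's own transcription.

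Marker genes of liver cell types were examined as lists. Of 12 hepatocyte markers, 8 had a unit of their own, 3 lay in merged units and 1 had none, and 1 fell, Cps1. Their summed level was 12845, 20667 and 9425 CPM in SA and 8378, 7583 and 8796 in Ent, with Cps1 the most abundant. Without Cps1 the sum was 6791, 7009.6 and 6782 CPM in SA and 6298, 6460.5 and 6419 in Ent, lower in every Ent library, and the list's median of -0.06 turned to 0.08 with scaling to uniquely mapped reads. The median of the list was -0.01 without SA replicate 2, -0.13 without SA replicate 3, -0.19 without Ent replicate 1 and -0.18 without Ent replicate 3. Of 11 sinusoidal endothelial markers, 3 had a unit and 8 had none, with a summed level of 186, 193 and 241 CPM in SA and 241, 203 and 216 in Ent, Kdr the most abundant and no call. Of 8 cholangiocyte markers, 2 had a unit and 5 had none, and their levels are not given. Without single libraries the call was not kept for Cps1 (SA replicate 2, Ent replicate 1, Ent replicate 2 or Ent replicate 3). On the log2 scale the difference was -1.23 for Cps1 without SA replicate 2 (in place of -2.002). Markers of Kupffer cells, stellate cells, lymphocytes, neutrophils and erythroid cells had 0 units of their own, so that their levels were not analysed here. The part of cell composition in the differences was not tested.

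The share of reads was compared by unit length. Units of 200 kb or more (271 units) held 15.6, 16.4 and 15.8% of the single-gene counts in SA and 17.03, 17.1 and 17.5% in Ent. Every Ent library was above the SA libraries, a difference of 1.28 percentage points (two-sided exact permutation test, p = 0.1, the smallest that 3 libraries against 3 allow). The shares of the shorter classes overlapped between the groups, with exact permutation p-values of 0.200 under 10 kb, 0.900 from 10 to 50 kb and 0.400 from 50 to 200 kb. The units called higher and lower in Ent numbered 81 and 31 of 378 (29.6%) under 10 kb, 355 and 324 of 2551 (26.6%) from 10 to 50 kb, 111 and 213 of 1505 (21.5%) from 50 to 200 kb and 20 and 27 of 271 (17.3%) at 200 kb or more, beside 24.7% of all single-gene units. Scaling to uniquely mapped reads gave 102 and 20, 548 and 229, 222 and 127 and 49 and 17 in the same order, so that the balance in the classes from 50 kb upward depended on the scaling. Without Ent replicate 3 the counts were 49 and 13, 184 and 199, 66 and 122 and 8 and 19. Falls from 50 to 200 kb numbered 103 without Ent replicate 2. From 10 to 50 kb the balance also turned without SA replicate 2 (291 and 314) or SA replicate 3 (210 and 243). At 200 kb or more it turned without SA replicate 2 (28 and 22) or Ent replicate 2 (15 and 14). No test compared the classes in these counts. Per kilobase of unit, of the 3 single-gene units with the highest CPM, Cps1 had a mean level of 61.0 CPM per kb in SA and 15.2 in Ent, Apob 59.0 and 65.3, and Adk 6.52 and 8.75.

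**Figure D3:**
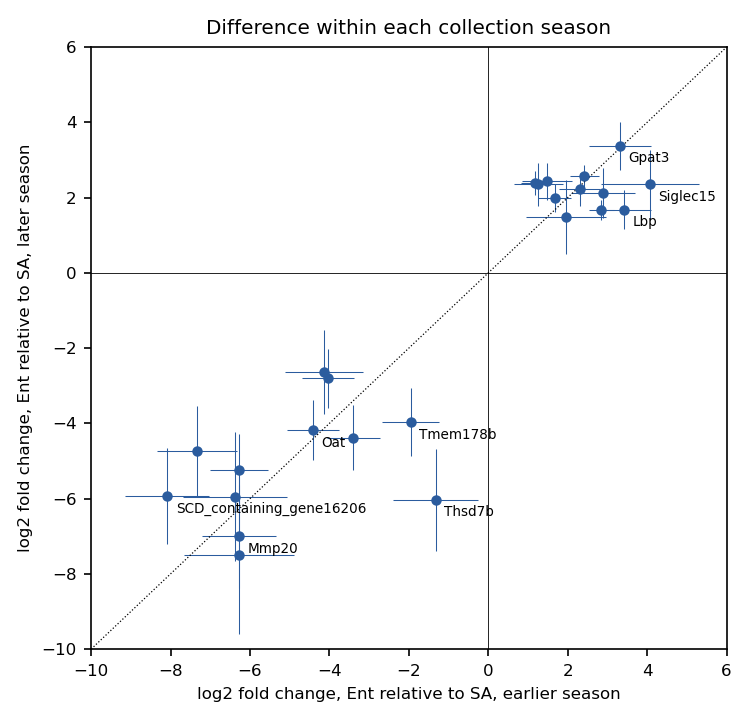
Log2 fold change, Ent relative to SA, within the earlier collection season (1 SA and 2 Ent libraries, horizontal axis) and within the later season (2 SA and 1 Ent, vertical axis) for the 24 units with the largest falls and rises, with standard errors as bars and a dotted line of equality. The units were chosen for groups that do not overlap, so that the shared sign of each point on both axes is set by that choice. The distance from the line of equality is the measured quantity, and Thsd7b lies farthest from it.

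Differences within each season came from a fit of state by season. In it, SA replicate 1 is alone in its group in the earlier season and Ent replicate 3 in the later. The lone library of a group is taken to vary like the others, so calls within a season are not given. In the test of whether the difference depended on the season, 0 units passed in edgeR's fit, with 380 at an unadjusted p of 0.05 or less (264 in the fit of the SA and Ent libraries alone, where 0 passed). The log2 fold change of SCD_containing_gene16206 was -8.08 in the earlier and -5.93 in the later season, that of Oat -4.42 in the earlier and -4.18 in the later season, that of Gpat3 3.32 in the earlier and 3.38 in the later season and that of Atf5 2.42 in the earlier and 2.56 in the later season. The season values of Thsd7b were farther apart, -1.33 in the earlier and -6.03 in the later season. Some list members had values farther apart in the earlier and the later season, though 0 units passed the test of dependence on season. These included Acss2 (-2.90 and -0.88), Acly (-2.78 and -1.58), Insig1 (-0.27 and -2.07) and Abcg5 (-1.67 and -0.51). For the lists, the median in the earlier and the later season was -0.62 and -0.80 for fatty acid synthesis, -0.50 and -0.76 for cholesterol, -0.73 and -0.72 for amino acid catabolism, 0.70 and 0.69 for ribosomal proteins and 0.32 and 0.33 for splicing genes, beside 0.00 and -0.01 for all single-gene units. Medians of some other lists turned sign or lay farther apart. The insulin and IGF axis had -0.35 and 0.16, hepatocyte transcription factors 0.15 and -0.16, and coagulation -0.21 and 0.11. Bile acid genes had -0.78 and -0.11, and sinusoidal endothelial markers 0.68 and -0.05.

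The other winter states are given side by side, since each of these comparisons shares libraries with the SA and Ent groups. The 567 units higher in Ent had a median log2 fold change of 0.76 against SA, 0.22 for IBA against SA and 0.51 for Ent against IBA. The 595 lower units had medians of -0.89, -0.34 and -0.55. These units were called for their difference between SA and Ent, and the steps through IBA add up to it. The shared sign of these medians is therefore partly set by that choice. SCD_containing_gene16206 was at 8.71 ± 4.94 CPM in IBA (SD, n = 3), 6.28 ± 5.57 CPM in ET (SD, n = 3) and 12.6 ± 13.6 CPM in LT (SD, n = 2), so that its winter levels lay near those of Ent. Atf5 was at 214 ± 64.9 CPM in IBA and 802 ± 121 in ET (SD, n = 3 each), between SA and Ent in the first and near Ent in the second. Gys2 was at 354 ± 126 CPM in IBA and 34.9 ± 7.28 in ET (SD, n = 3 each). A2m was at 2984 ± 2417 CPM in IBA, against 835 ± 581 in SA and 741 ± 259.8 in Ent (SD, n = 3 each). The ribosomal protein list had a median of 0.25 for IBA against SA and 0.41 for Ent against IBA, whereas for fatty acid synthesis the values were -0.46 and 0.18.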

How the data were processed

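The authors trimmed the reads with cutadapt, aligned them to HiC_Itri_2 with BWA, redefined gene bodies with fstitch over all states, merged overlapping genes, removed the first 500 nt and counted uniquely aligned reads with featureCounts. The deposited values are these read counts per unit, and the authors' DESeq2 results were not used. Tool versions are not given in the sources used here. The unit length in nt, also deposited by the authors, is another kind of value and was used for length classes and levels per kilobase only. According to the study's methods, its GRO-seq libraries were prepared alongside one another.

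Counts of 14 libraries (5 states) and 6324 units were fitted together in edgeR 4.0.16 under R 4.3.3 with TMM and state as the factor, and the Ent minus SA contrast was tested by quasi-likelihood, p-values being adjusted over all units by Benjamini-Hochberg. LT replicate 2 was not used here. Calls were counted over single-gene units at 0.05, and the threshold of 0.001 is the authors'. Season by state was fitted in the same way. No unit was filtered. 4063 single-gene names (86.4%) match a RefSeq symbol or synonym of mIctTri1.hap1, used for names only. Alternatives were DESeq2 1.42.0, other scalings, filters, fits, covariates and each library left out. Steps were tested on simulated data. Python 3.11.15, numpy 2.4.6, pandas 2.3.3 and matplotlib 3.10.9 made tables and figures.

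The comparison's members and gene lists were chosen with earlier results of these data known. List symbols were matched to single-gene units by name ignoring case, or to the only unit named for the symbol with the ending like or containing. Genes named are the 12 highest and 12 lowest log2 fold changes among called symbol-named units with groups that do not overlap, the 2 and 2 such ID-only units, called members of each list (at most 4 in full) with the member of highest CPM, the genes named for GRO-seq in the study, and the 3 units of highest CPM. Further called list members, and units sharing a symbol with a named one, were added after their values were seen. Each group holds 3 separate animals, and counts cover 3713883 to 8884763 reads per library. In edgeR's main fit the spread behind the p-values came from all 14 libraries (9 residual degrees of freedom), not from SA and Ent alone. With the SA and Ent libraries fitted alone, 214 units were called higher and 251 lower in Ent.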

Additional observations from a re-analysis of the deposited data

How the results depend on the processing

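The counts of units higher and lower in Ent, 567 and 595, were 706 and 738 with DESeq2, 510 and 519 with season as a covariate in the fit of all libraries, and 214 and 251 with the SA and Ent libraries fitted alone, where fewer libraries give the spread. With season added to that smaller fit they were 80 and 129. Scaling to uniquely mapped reads gave 921 and 393, and the cause was not tested. The stricter thresholds gave 17 and 25 (adjusted p of 0.001) and 152 and 248 (at least 2-fold), by their construction. Leaving out each library in turn gave between 307 and 513 higher and between 337 and 570 lower units. Replicate numbers in the labels are only names, and the deviations of same-numbered SA and Ent libraries had correlations of 0.0782, -0.130 and -0.0408, so that the numbers do not pair samples. With the replicate number as a block there were 468 and 499 calls in the fit of all libraries and 8 and 20 in that of the SA and Ent libraries alone, where few degrees of freedom remain.

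Of 112 called units given by the naming rule, 77 kept the call whichever library was left out, and 35 lost it at least once. Of 44 further called list members, 10 kept it and 34 lost it. Of the 112, 50 lost the call with the SA and Ent libraries fitted alone, 72 with season added to that fit, and 13 with season in the fit of all libraries. Units not called turned sign in some settings: Serpina7 to 0.435 without SA replicate 1, A2m to 0.0626 and 0.0757 with season as a covariate in both fits, 0.560 without SA replicate 2 and 0.0258 without Ent replicate 1, Hsp90aa1 to 0.0426 with uniquely mapped scaling, 0.0484 without SA replicate 1 and 0.0248 without SA replicate 2, Atp6v1b2 to 0.00731 with uniquely mapped scaling, C8a to -0.176 without SA replicate 1 and -0.259 without Ent replicate 3, and Psap and Myh9 to 0.133 and 0.0116 without SA replicate 2. The difference in the share of counts was -0.200 points in units under 10 kb and 0.140 points in those of 10 to 50 kb with merged units counted, in place of 0.364 and -0.241, and the cause was not tested. Leaving out 1 library gave differences from -1.14 to 0.323 points in the latter class, positive without SA replicate 1 (0.323), SA replicate 3 (0.0921) or Ent replicate 3 (0.150). Over the settings that leave out 1 library, the log2 fold change ran from -1.24 to 0.435 for Serpina7, from -0.493 to 0.560 for A2m, from -0.367 to 0.0484 for Hsp90aa1, from -0.259 to 0.244 for C8a, from -0.403 to 0.133 for Psap and from -0.405 to 0.0116 for Myh9. With edgeR, the count of units whose difference depended on the season was 0 in the fit of all libraries and in that of the SA and Ent libraries alone. A search for promoter motifs was not run. With 3 animals per group, small differences may pass unseen, and every result is relative to the library total as scaled.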
